A study of Mus musculus with 58 samples.

Results

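Nucleotide excision repair was examined in mice exposed to a carcinogenic hydrocarbon, through 10 genes of the pathway: Xpc, Ddb1, Ddb2, Xpa, Ercc1, Ercc2, Ercc3, Ercc4, Ercc5 and Ercc6. They were chosen by name, with earlier results of these data known, because this pathway removes bulky hydrocarbon adducts. Every array probe whose accession mapped to them was taken. This gave 11 of the 55681 probes on the array, with 2 probes for Xpa and 1 for each of the other 9 genes, among 20018 genes with a symbol. The animals were male Muta™Mouse, a transgenic strain that carries a bacterial reporter for scoring mutations, with a labelled age of 10 weeks. All received olive oil by gavage for 28 days, either alone (D0, the vehicle) or with benz(a)anthracene (BaA). The daily dose was 20 mg/kg-bw in D1, 40 in D2 and 80 in D3, and tissues were taken 72 h after the last dose. Lung was measured in 5 mice per group, liver in 5, 5, 5 and 4 mice from D0 to D3, and forestomach in 4, 5, 5 and 5, which makes 58 arrays from 20 mice. Each array set the RNA of a tissue (Cy5) against a common reference RNA pooled from mouse cell lines (Cy3), so a level is given here as a log2 ratio to that reference, and levels are compared between samples of the same probe and never between probes.

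Excision repair cuts out damage that distorts the double helix, such as the adducts left by polycyclic aromatic hydrocarbons after metabolic activation. XPC, and the DDB1-DDB2 complex for part of the lesions, find damage anywhere in the genome, while ERCC6 (also called CSB) acts where an RNA polymerase has stalled on it. The helicases ERCC2 (XPD) and ERCC3 (XPB) of TFIIH then open the helix, XPA verifies the lesion, and the nucleases ERCC1-ERCC4 (XPF) and ERCC5 (XPG) cut on its 5′ and 3′ sides. In human cells, DDB2 and XPC are known as genes whose transcription p53 can raise after DNA damage. A part of p53 in the mouse results below was not tested.

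Ddb2 rose in lung with dose, by 1.71-fold at D3. Xpa rose in lung on the brighter of its probes, by 1.35-fold at D3, under the 1.5-fold minimum that a call requires. Ercc4 was 1.19-fold higher, at an adjusted p close to the threshold. No member probe was called at any dose in liver or forestomach. A call required an adjusted p (Benjamini-Hochberg, over all probes tested in the comparison) of 0.05 or less together with a change of 1.5-fold or more. The adjusted p-values below are from limma. All 11 member probes were bright enough to be tested in all 3 tissues. Of these, 10 were well above background in Cy5 on every array, and the Ercc6 probe was so on 19 of 20 lung, 13 of 19 liver and 16 of 19 forestomach arrays. No member spot was saturated. Ercc6 was not the only dim probe. The median Cy5 signal, not background-corrected, was 232 in lung, 126 in liver and 243 in forestomach for Ddb2. It was 126 in liver for Ercc1, beside 142, 98 and 138 for Ercc6 in lung, liver and forestomach. The size of the Ddb2 changes depended on the signal used, as given below.

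The promoters of Xpa and Ercc4 are shown first, since both had a probe with a dose trend in lung. RefSeq's promoter table (GRCm38.p6) holds 7 of the member genes, namely Xpa, Ddb1, Ercc1, Ercc2, Ercc4, Ercc5 and Ercc6, while those of Ddb2, Xpc and Ercc3 were not used here. Each entry spans 300 bases, most of them before the annotated start of transcription. Xpa lies on the minus strand at chr4:46196262-46196561 and Ercc4 on the plus strand at chr16:13109486-13109785. Capitals mark matches on either strand to GCGTG, the core of the element bound by the aryl hydrocarbon receptor, which hydrocarbons such as BaA activate.
Xpa: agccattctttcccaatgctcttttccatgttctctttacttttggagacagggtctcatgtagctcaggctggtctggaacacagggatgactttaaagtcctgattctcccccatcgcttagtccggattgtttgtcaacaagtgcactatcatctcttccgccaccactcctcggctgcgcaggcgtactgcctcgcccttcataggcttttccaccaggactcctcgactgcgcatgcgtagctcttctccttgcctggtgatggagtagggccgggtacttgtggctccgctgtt
Ercc4: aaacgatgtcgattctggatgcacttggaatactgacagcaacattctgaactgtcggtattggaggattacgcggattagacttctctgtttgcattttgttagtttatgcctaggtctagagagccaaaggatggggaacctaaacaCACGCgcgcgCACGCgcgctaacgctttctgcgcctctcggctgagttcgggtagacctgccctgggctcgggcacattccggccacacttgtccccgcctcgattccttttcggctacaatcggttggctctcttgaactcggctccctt

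No match lay in the Xpa window, and 2 lay in that of Ercc4, both read as CACGC on the printed strand. Across the table, 32.4% of 32851 promoter entries held this motif, and 5 of the 7 member promoters did. The E-box CACGTG, the site of clock and Myc-family factors, was in 7.15% of the entries and in 1 member promoter, that of Ercc6, and it overlapped no GCGTG match in any member promoter. These matches describe the letters of the windows only.

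Tissue identity held at the level of marker genes, with exceptions that touch the comparisons below. The mean log2 ratio of 7 lung markers was 6.52 to 6.91 in lung and at most 1.41 elsewhere, and that of 7 liver markers was 6.17 to 6.77 in liver. Liver markers ranged from 0.14 to 2.69 in forestomach and from 0.31 to 0.90 in lung. Markers of squamous epithelium, which lines the forestomach, were 3.17 to 4.22 in forestomach, but 1 vehicle lung array (mouse 5) also reached 3.18. In forestomach the markers of glandular stomach ranged from 0.79 to 6.47 and were unequal between groups, with 1 of 4 vehicle arrays high (5.86, mouse 2, with the group's lowest at 0.79) against 5.04 to 6.33 in D1. In lung, markers of fat stood at 6.11 in 1 D2 array (mouse 14), markers of T cells at 1.83 in 1 D3 array (mouse 17), and markers of squamous epithelium at 1.11 in 1 D3 array (mouse 16). Heart muscle markers varied from 0.54 to 3.88 among lung arrays of all doses, and fat markers from 1.16 to 5.40 in forestomach. Lung arrays had 42.8 to 53.8% of spots well above background, liver arrays 32.8 to 44.6% and forestomach arrays 36.8 to 68.5%. In bulk tissue, a change in the share of a cell type and a change of RNA within each cell cannot be told apart.

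Ddb2 encodes the damage-binding subunit of the DDB1-DDB2 complex. In vehicle lung its log2 ratio was -1.45, -1.70, -1.66, -1.54 and -1.69 in mice 1 to 5. At D1 it was -1.63, -1.61, -1.54, -1.70 and -1.26 in mice 6 to 10. The D1 values overlapped those of the vehicle, with mouse 10 above the rest. At D2 it was -1.15, -1.30, -1.24, -1.17 and -0.65 in mice 11 to 15, and at D3 it was -0.83, -1.01, -0.91, -0.46 and -0.96 in mice 16 to 20. Every D2 and every D3 array lay above every vehicle array. At D3 this held for 4.85% of all probes tested in lung, and the share at D2 was not computed.

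The group means of Ddb2 in lung were -1.61 ± 0.11 at D0, -1.55 ± 0.17 at D1, -1.10 ± 0.26 at D2 and -0.84 ± 0.22 at D3 (SD, n = 5 each). The change against D0 was 0.06 at D1 (SE 0.12, limma adjusted p = 0.945), 0.51 at D2 (SE 0.12, adjusted p = 0.033) and 0.77 at D3 (SE 0.12, adjusted p = 0.00074), all on the log2 scale. At D2 the change was 1.42-fold, so it passed the adjusted p but not the minimum fold. The slope over the 20 lung arrays was 0.104 log2 units per 10 mg/kg-bw/day (SE 0.0152, adjusted p = 0.000293). The 3 dose groups were all set against the same 5 vehicle lungs. Within the slides that held the arrays, each of which carried all 4 dose groups, the D3 minus D0 difference was 0.66 on slide 1, 1.20 on slide 2 and 0.67 on slide 3. Slide 2 held 1 D3 and 1 vehicle array, and slides 1 and 3 held 2 of each. In the separate channels, the Cy5 signal of the tissue changed by 0.65 (SE 0.12) and the Cy3 signal of the reference by -0.12 (SE 0.05, adjusted p = 1 in limma), so the tissue channel carried most of the change in the ratio. When the deposited log2 table replaced these ratios, the Ddb2 change at D3 was 0.77 (limma adjusted p = 0.00164). With the scanner's processed signals in place of median signals, it was 1.14 (limma adjusted p = 0.00109). With median centring of each array in place of loess, the change was 0.92 but no longer passed (adjusted p = 0.911), and 0 of all lung probes were called at any dose or for the trend.

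Xpa encodes the factor that verifies the lesion and positions the nucleases. The probe with the higher signal, called probe 1 here, stood at 0.30, 0.25, 0.17, 0.27 and 0.18 in the vehicle lungs. It stood at 0.35, 0.29, 0.55, 0.32 and 0.40 at D1, at 0.58, 0.56, 0.64, 0.50 and 0.60 at D2, and at 0.71, 0.75, 0.58, 0.77 and 0.50 at D3. All D2 and D3 arrays lay above all vehicle arrays, beside 4.85% of all probes at D3 and a share not computed at D2. The D2 and D3 arrays overlapped each other. Its change was 0.15 at D1 (SE 0.07, adjusted p = 0.621), 0.34 at D2 (SE 0.07, adjusted p = 0.00884) and 0.43 at D3 (SE 0.07, adjusted p = 0.000594). The slope was 0.0538 per 10 mg/kg-bw/day (SE 0.0083, adjusted p = 0.000424), and the D3 minus D0 difference was 0.46, 0.60 and 0.32 within the 3 slides. The 0.60, on slide 2, again compared 1 array with 1.

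The other Xpa probe, probe 2, parted from this course at D3. At D2 all of its arrays, too, lay above all vehicle arrays, but its change there did not pass. The share of all lung probes separated in this way at D2 was not computed. Its lung means were -0.14 ± 0.12 at D0, 0.12 ± 0.14 at D1, 0.13 ± 0.07 at D2 and -0.05 ± 0.11 at D3 (SD, n = 5 each). The change was 0.26 at D1 and 0.27 at D2 (limma adjusted p = 0.392 and 0.0754), and 0.09 at D3 (adjusted p = 0.527, 95% confidence interval -0.07 to 0.25). At D3 the intervals of the probes did not meet, since that of probe 1 ran from 0.29 to 0.57. Both probes carry the same accession, so the rise of Xpa at D3 rests on probe 1 alone.

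**Figure D1:**
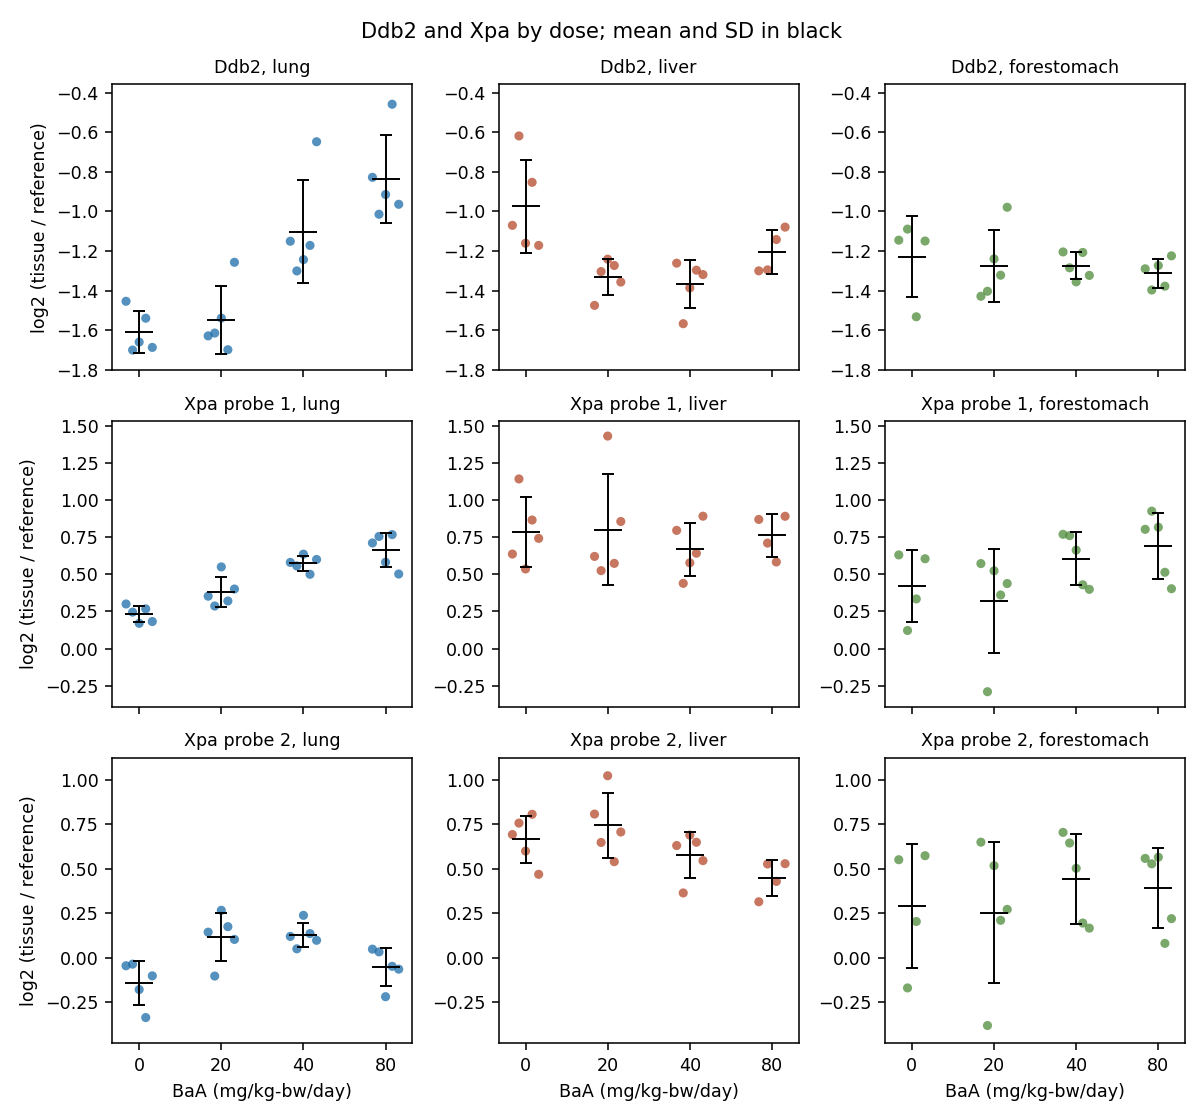
Log2 ratio to the reference of Ddb2 and of both Xpa probes against the BaA dose in mg/kg-bw/day, in lung, liver and forestomach. Each point is an array, and black bars give the mean and SD of 4 or 5 arrays. In lung, Ddb2 went from a mean of -1.61 at D0 to -0.84 at D3 and Xpa probe 1 from 0.23 to 0.66, while Xpa probe 2 ended at -0.05 after 0.13 at D2.

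Ercc4 (XPF), the catalytic partner of ERCC1, moved less. Its vehicle lungs lay between -0.22 and -0.08, and its D3 lungs between -0.06 and 0.27. The groups did not overlap, and 4.85% of all lung probes likewise had every D3 array above every vehicle array. The means were -0.16 ± 0.07 and 0.09 ± 0.13 (SD, n = 5 each). The change at D3 was 0.25 (SE 0.07, limma adjusted p = 0.0398), and the slope was 0.0319 per 10 mg/kg-bw/day (SE 0.0088, adjusted p = 0.0218). The D3 change passed no longer in the deposited log2 table (adjusted p = 0.0543), with no filter on dim probes (0.0591), with median centring (0.952), when mouse 1, 3, 4, 5, 17 or 19 was left out (0.0551 to 0.117), or without the 4 lung arrays with marker genes of other cells (0.221). The slope passed no longer when mouse 17 or mouse 19 was left out, nor without the 4 lung arrays with marker genes of other cells named above (adjusted p = 0.13), a choice made after seeing the data.

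The remaining damage sensors did not pass in lung. Xpc stood at 1.01 ± 0.16, 1.03 ± 0.17, 1.21 ± 0.12 and 1.12 ± 0.07 from D0 to D3 (SD, n = 5 each), with a D3 change of 0.11 (95% confidence interval -0.08 to 0.29). Ddb1, the partner of Ddb2, went from -0.39 ± 0.06 to -0.24 ± 0.19, a change of 0.15 (-0.07 to 0.36). Ercc6, of the transcription-coupled branch, changed by 0.15 (-0.02 to 0.32), with the vehicle arrays between -0.15 and 0.35.

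Of the helicases and nucleases, Ercc2 had the largest D3 value in lung among the probes that did not pass, at 0.20 (95% confidence interval 0.02 to 0.38, limma adjusted p = 0.165). Ercc3 changed by 0.13 (-0.04 to 0.31) and Ercc1 by 0.13 (-0.05 to 0.30). Ercc5 was the single member below 0, at -0.03 (-0.24 to 0.18). These intervals allow changes of up to 0.38 on the log2 scale and therefore do not show that the genes were unaffected.

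Read against all probes tested in lung (30383), 1 of the 11 member probes was called at D3, beside 1.88% of all probes. At D2, 0 members were called beside 0.553%, and at D1, 0 beside 0%. At an unadjusted p under 0.05, limma gave 2, 5 and 4 member probes from D1 to D3, beside 7.47%, 16% and 23.8% of all probes. With no minimum fold, 2 member probes were higher at D2 (Ddb2 and Xpa probe 1) beside 1.79% of all probes, and 3 at D3 beside 5.8%, the third being Ercc4, which did not pass in the alternatives named above. The same 3 probes had every D3 array above every vehicle array, which held for 4.85% of all probes. A trend with dose at an adjusted p of at most 0.05 was found for 3 of 11 member probes beside 11.6% of all probes, and all 3 rose, beside 7.25% that rose. The median change of the member probes at D3 was 0.15, with 10 of 11 above 0, while the median of all tested probes was 0.00.

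**Figure D2:**
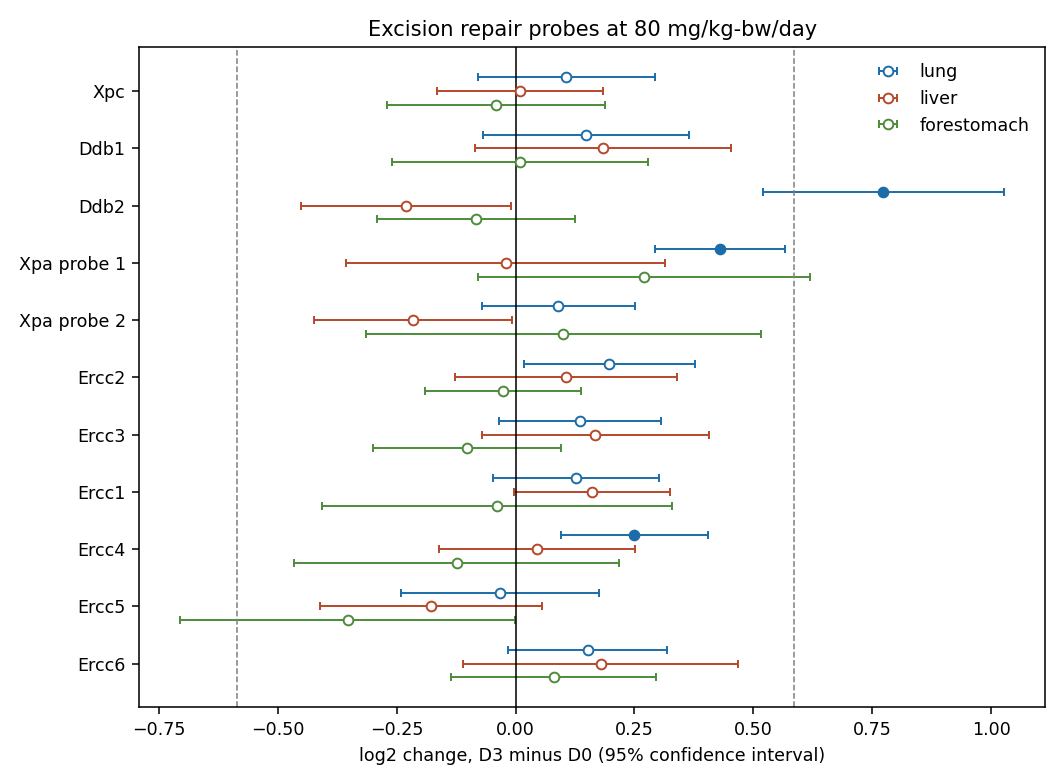
Log2 change at D3 against D0 for the 11 member probes in lung, liver and forestomach, with 95% confidence intervals from limma. Filled points have an adjusted p of at most 0.05, and dashed lines mark a 1.5-fold change. The filled points are Ddb2, Xpa probe 1 and Ercc4, all in lung, and of these Ddb2 (0.77) lies beyond the dashed line.

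Of the cell markers tested, only those of B cells had calls in lung, and 5 of the 6 had a change above 0 at D2 and at D3. Of 6 B cell markers, 4 were called higher at D2 and 2 at D3, and their mean log2 ratio was 0.45 to 0.89 over the vehicle arrays, 0.63 to 1.23 at D1, 1.14 to 1.67 at D2 and 0.93 to 1.16 at D3. On every array 5 or 6 of them were well above background. Their group mean was 0.64 at D0, 0.88 at D1, 1.30 at D2 and 1.04 at D3. The part of these cells in the Ddb2, Xpa and Ercc4 results was not tested. None of 6 T cell markers and none of 7 tested markers of dividing cells was called in lung at D3. Without the 4 lung arrays that carried markers of squamous epithelium, T cells or fat, Ddb2 was called at D3 (0.81, limma adjusted p = 0.0133). The Xpa probe 1 change was then 0.37 (adjusted p = 0.0244). B cell markers had no part in the choice of these 4 arrays.

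In liver no member probe was called. Ddb2 stood at -1.07, -0.62, -1.16, -0.85 and -1.17 in the vehicle livers, above all D1 arrays (-1.48 to -1.24) and all D2 arrays (-1.57 to -1.26). The change was -0.36 at D1 (SE 0.10, limma adjusted p = 0.177), -0.39 at D2 (SE 0.10, adjusted p = 0.0619) and -0.23 at D3 (SE 0.11, adjusted p = 0.31). The D3 arrays, at -1.30 to -1.08, overlapped those of the vehicle. The share of all liver probes with no overlap at D1 or D2 was not computed. With the scanner's processed signals in place of median signals, Ddb2 was called lower at D2 in liver, so this value lies near the threshold.

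The other liver values were small at D3. Xpa probe 1 changed by -0.02 (95% confidence interval -0.36 to 0.31) and probe 2 by -0.21 (-0.42 to -0.01, limma adjusted p = 0.315). Ercc1 changed by 0.16 (-0.00 to 0.33), and all 4 D3 livers lay above all 5 vehicle livers, at -1.94 to -1.78 against -2.18 to -1.97. The share of all liver probes separated in this way was not computed. Xpc changed by 0.01 (-0.17 to 0.18). Among all 22789 probes tested in liver, 0.241% were called at D1, 0.597% at D2, 0.434% at D3 and 0.658% had a trend, beside 0 members in each. At an unadjusted p under 0.05, limma gave 2, 3 and 2 member probes from D1 to D3 and 1 for the trend, beside 7.51%, 12.7%, 15% and 15% of all probes.

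In forestomach, the tissue reached first by a gavage dose, the members also gave 0 calls. The background was low too, at 0%, 0.0124% and 0.0248% of 32318 probes from D1 to D3 and 0.0248% for the trend. An unadjusted p under 0.05 was found for 0, 0 and 1 member probes from D1 to D3 and for 1 in the trend, beside 4.42%, 3.3%, 5.1% and 5.24% of all probes. Ddb2 means were -1.23 ± 0.20 (SD, n = 4), -1.27 ± 0.18, -1.28 ± 0.07 and -1.31 ± 0.07 (SD, n = 5 each), with a D3 change of -0.08 (95% confidence interval -0.29 to 0.12). Xpa probe 1 went from 0.42 ± 0.24 at D0 to 0.69 ± 0.22 at D3, a change of 0.27 (-0.08 to 0.62, limma adjusted p = 1). Ercc5, the 3′ nuclease, had the lowest value, -0.35 at D3 (-0.70 to -0.00, adjusted p = 0.978), with all 5 D3 arrays below the vehicle mean. The spread in this tissue was wide, and the unequal content of glandular markers between its groups lies beside each of these values. Its part in them was not tested.

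The difference of the D3 effect between tissues was tested directly in a model of all 12 groups. The D3 effect on Ddb2 was higher in lung than in liver by 1.00 (SE 0.16, limma adjusted p = 1.88e-05) and higher than in forestomach by 0.86 (SE 0.16, adjusted p = 0.00265). With processed signals these differences were 1.59 and 1.32 and were called. With median centring they were 1.22 and 1.08 and were not called. Between liver and forestomach it differed by -0.15 (95% confidence interval -0.47 to 0.17). No other member probe was called in these comparisons, whose background was 2.06% for lung minus liver, 0.26% for lung minus forestomach and 0.0453% for liver minus forestomach. For Xpa probe 1 the lung effect exceeded that in liver by 0.45 (0.06 to 0.84, adjusted p = 0.269) and that in forestomach by 0.16 (-0.23 to 0.55), so a difference between tissues was not shown for Xpa. The 3 comparisons share groups with each other. At an unadjusted p under 0.05, limma gave 2, 2 and 0 member probes, beside 13.4%, 8.38% and 6.85% of all probes.

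In the vehicle mice, the tissues differed in the members' levels relative to the reference. Ercc1, the non-catalytic partner of ERCC4, had the widest range. Its ratio was -0.37, -0.36, -0.24 and -0.11 in the 4 vehicle forestomachs, between -1.40 and -1.09 in lung and between -2.18 and -1.97 in liver, with no overlap between tissues. Forestomach exceeded lung by 2.03-fold (limma adjusted p = 3.60e-10) and liver by 3.41-fold (adjusted p = 1.69e-18), and lung exceeded liver by 1.68-fold (adjusted p = 8.79e-08). The share of all probes with no overlap between the vehicle tissues was not computed. Xpc followed another order, with 0.75 to 1.19 in lung, then liver at 0.36 to 0.66, and forestomach lowest at -0.01 to 0.31. Lung exceeded forestomach by 1.90-fold (adjusted p = 3.88e-12), and lung over liver reached 1.39-fold (adjusted p = 4.82e-06), under the minimum fold.

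Ddb2 and its partner Ddb1 lay in opposite order between lung and liver. Ddb2 was lower in vehicle lung than in liver by 1.55-fold (limma adjusted p = 6.14e-07), whereas Ddb1 was higher in lung by 1.60-fold (adjusted p = 9.41e-07). Against forestomach, the vehicle lung level of Ddb2 was lower by 1.30-fold (limma adjusted p = 0.00356), under the minimum fold. Vehicle lung thus had the lowest mean Ddb2 ratio of the 3 tissues. Its arrays, at -1.70 to -1.45, overlapped those of vehicle forestomach, at -1.53 to -1.09. The D3 lungs, at a mean of -0.84, lay above the D3 means of liver (-1.20) and forestomach (-1.31), a comparison that was not tested. Both Xpa probes were lower in lung than in liver, by 1.47-fold for probe 1 (adjusted p = 0.000239), under the minimum fold, and 1.75-fold for probe 2 (adjusted p = 2.46e-07). Ercc4 was lower in liver than in forestomach by 1.60-fold (adjusted p = 1.51e-06).

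Ercc2 was the most even member across vehicle tissues, at -0.37 ± 0.16 in lung, -0.33 ± 0.16 in liver (SD, n = 5 each) and -0.41 ± 0.03 in forestomach (SD, n = 4), and the difference between liver and forestomach was 0.08 (95% confidence interval -0.10 to 0.27). Ercc3 was lower in lung (-0.46) than in liver (-0.23) and forestomach (-0.06), and Ercc5 was lower in lung (0.06) than in liver (0.42) and forestomach (0.46), all under the minimum fold. Ercc6 stood at 0.03, 0.22 and -0.07 in lung, liver and forestomach, near its background in part of the arrays.

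In all, 4 member probes were called between vehicle lung and liver beside 50.6% of all probes. Between lung and forestomach 2 were called beside 31.8%, and between liver and forestomach 2 beside 44.9%. With median centring, 1 was called between lung and liver and 4 between liver and forestomach. With no minimum fold, 8 of 11 passed in each comparison, beside 75.7%, 56% and 69.4% of all probes. Each slide held a single tissue, so slide and tissue cannot be told apart here.

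**Figure D3:**
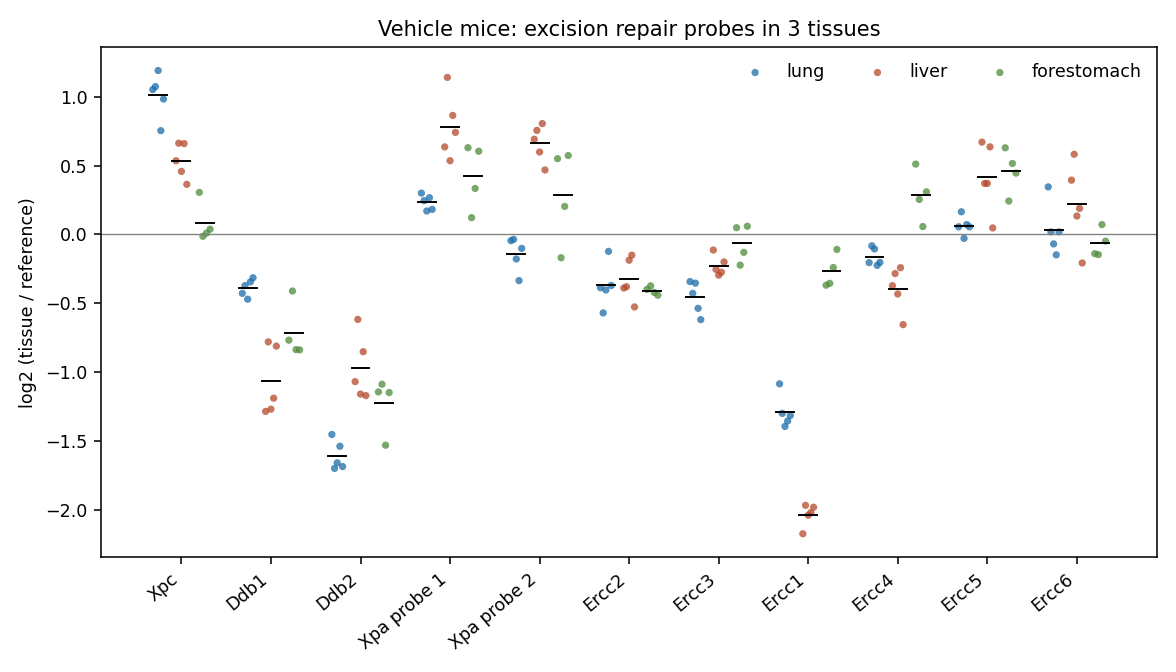
Log2 ratio to the reference of the 11 member probes in vehicle lung (5 arrays), liver (5) and forestomach (4). Points are arrays and black lines are group means, and heights may be compared between tissues of a probe but not between probes. Ercc1 separates the 3 tissues without overlap, from -2.04 in liver over -1.29 in lung to -0.27 in forestomach, while the Ercc2 means lie between -0.41 and -0.33.

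The rest of the pathway was read from 39 further genes with 51 probes, which cover damage recognition and coupling to transcription (10 genes), TFIIH and its kinase module (8 genes), and single-strand binding, gap filling and ligation (21 genes). In lung 49 of these probes were tested, in liver 45 and in forestomach 49. None was called at any dose in any tissue. In limma, 2, 6 and 17 of the lung probes had an unadjusted p under 0.05 from D1 to D3, where 7.47%, 16% and 23.8% of all lung probes did. In liver 2, 2 and 4 had one, and in forestomach 0 in each, beside the shares of all probes given above for these tissues. At D3 in lung the values ran from -0.29 to 0.41 with a median of 0.10, and 34 of 49 lay above 0.

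A trend in lung passed for 7 of the 49 probes, 6 rising and 1 falling, beside the 11.6% of all probes given above, and for 4 when mouse 17 or mouse 19 was left out. Xab2, which links stalled polymerase to repair, rose with 0.0515 per 10 mg/kg-bw/day (SE 0.0111, limma adjusted p = 0.00438). Rfc1, the large subunit of the clamp loader, rose with 0.0523 (SE 0.0115, adjusted p = 0.00503). The single-strand break scaffold Xrcc1, the single-strand binding subunit Rpa1, the clamp loader subunit Rfc4 and the nucleosome binder Hmgn1 rose with 0.0329, 0.0298, 0.0288 and 0.0354 (adjusted p = 0.0133, 0.0217, 0.0406 and 0.0349). Rad23b, the partner of XPC, fell with -0.0308 (adjusted p = 0.0246). Of the 24 gap-filling and ligation probes 4 had a trend, of the 16 recognition probes 3, and of the 9 TFIIH probes 0 (1 at an unadjusted p under 0.05). These values are those of the main probes, and the further probes of Rfc4, Hmgn1 and Rad23b differed by 0.02, 0.06 and -0.03 at D3, against 0.25, 0.30 and -0.22 for the main ones. In liver and forestomach 0 probes of these lists had a trend, with 6 and 3 at an unadjusted p under 0.05, beside 15% and 5.24% of all probes.

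The D3 effect differed between lung and liver for 1 probe of these lists, that of Rfc5, another clamp loader subunit, by 0.59 (SE 0.16, limma adjusted p = 0.0226). It stood at 0.31 in lung and -0.28 in liver, neither of which passed alone, and the call was lost when mouse 1, 2, 17, 18, 19 or 20 was left out. Between the other pairs of tissues 0 probes were called, with 7 for lung minus forestomach and 2 for liver minus forestomach at an unadjusted p under 0.05, beside 8.38% and 6.85% of all probes. Among vehicle tissues, 20 of 45 probes were called between lung and liver, 12 of 49 between lung and forestomach and 17 of 45 between liver and forestomach, beside 50.6%, 31.8% and 44.9% of all probes. Between lung and liver the extremes were Cetn2, the small subunit of the XPC complex, at 1.42 higher in lung, and Rad23b, at -1.22. Pole3, a small subunit of DNA polymerase epsilon, stood at -1.64 for lung minus forestomach and at -1.59 for liver minus forestomach, all on the log2 scale.

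**Figure D4:**
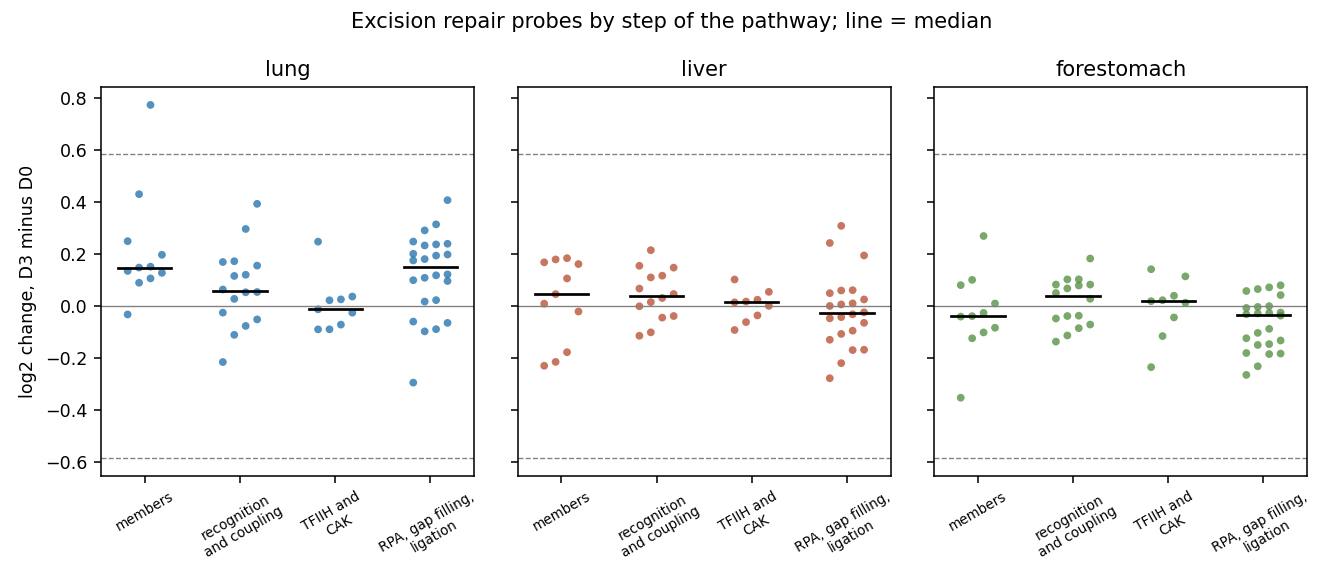
Log2 change at D3 against D0 for the member probes and for the probes of 3 further excision repair lists, in lung, liver and forestomach. Points are probes, black lines are list medians and dashed lines mark a 1.5-fold change. The Ddb2 probe in lung (0.77) is the only point beyond a dashed line, and the medians of the members are 0.15 in lung, 0.05 in liver and -0.04 in forestomach.

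To describe which genes ran most like the sensors and Xpa, the 12 group means of each were correlated across the main probes of 11531 genes tested in all 3 tissues, as a description without a test. Ddb2 was nearest to Gramd1a (Pearson r = 0.93), Krba1 (0.91) and Pank4 (0.91). Xpa probe 1 was nearest to Tatdn3 (0.93), Zfp512b (0.92) and Fbxo3 (0.92). Xpc was nearest to Sh2d3c, Irf1 and Ablim3 (each 0.99), where the 12 means are mainly those of 3 separate tissues. The points share arrays and the same reference RNA.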

How the data were processed

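Per the file headers, the deposited scanner files hold linear intensities of each spot from Feature Extraction 10.7.3.1. The log2 ratios that the authors normalised by LOWESS and deposited served as an alternative (r of 0.995 to 0.998 with the ratios used here, median absolute difference 0.0318). The median signals were used without background correction, as in the study, and normalised here by loess within each array (span 0.3). Outlier spots (0.495%) were dropped and spots of a probe averaged. No dyes were swapped. Accessions were matched to symbols through the RefSeq genes of GRCm38.p6, which named 26413 probes. The scanner grid is on mm9, so no probe coordinates are given.

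Tests in a tissue took the probes that at least 4 of its arrays marked as well above background in Cy5. The study used MAANOVA, which was not installed, and limma 3.58.1 (R 4.3.3) took its place, two-sided, with 1 model per tissue and a joint model of 12 groups for comparisons between tissues. P-values measure the spread between mice, and the number of arrays limits the precision. The models were also run on simulated data with planted changes. Its noise was independent between arrays, without effects of slide, mouse or cell content, so no conclusion about these is drawn from it. The main probe of a gene was the one above background on most arrays, ties going to the brighter. Of the further genes, those with a call at a dose, a dose trend or a D3 effect that differed between tissues were named. Of those called between vehicle tissues, only some with extreme values were named. The members and lists were chosen with earlier results of these data known.

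Mouse numbers in the labels tie tissues to an animal. Deviations from group means correlated between tissues of a mouse with a median r of 0.12 for lung and liver, 0.09 for lung and forestomach and 0.05 for liver and forestomach, and a fit with the mouse as a block was run. Further alternatives were other normalisations and signals, no filter, no minimum fold, slide as a block, fewer groups in the fit and leaving out each mouse. Arrays with identical values numbered 0. The liver of mouse 20 and the forestomach of mouse 5 were not analysed here. RefSeq promoter entries were used for 7 members.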

Additional observations from a re-analysis of the deposited data

Results flagged for a closer look

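The D3 effect on Ddb2 differed between tissues by the interaction test, by 1.00 between lung and liver and by 0.86 between lung and forestomach. That on Rfc5 differed between lung and liver by 0.59.

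Among 132 groups of 4 or 5 arrays (11 probes in 12 groups), 7 had a value set apart from the rest by a gap that filled most of the group's range, and about 1 in 20 groups would be so by chance. In D2 lung, Ddb2 of mouse 15 was -0.65 against -1.30 to -1.15 in the others, a gap of 0.77 of the range. In vehicle forestomach, Ddb2 of mouse 3 was -1.53 against -1.15 to -1.09 (0.864), Ddb1 of mouse 2 was -0.41 against -0.84 to -0.77 (0.835), and Xpc of mouse 1 was 0.31 against -0.01 to 0.04 (0.839). In D1 forestomach, mouse 7 was set apart for Xpa probe 1, at -0.29 against 0.36 to 0.57 (0.755), and for Ercc3, at -0.41 against -0.10 to -0.03 (0.818). In D3 liver, Ercc5 of mouse 17 was 0.44 against 0.16 to 0.21 (0.833).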

How the results depend on the processing

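The Ddb2 call in lung at D3 held under all alternatives run except median centring, with values of 0.68 to 1.14, the range including median centring (0.92, limma adjusted p = 0.911). Median centring in place of loess gave 0 calls over all lung probes at every dose and moved the median of all lung probes by 0.18, 0.37 and 0.15 from D1 to D3. At D3 the members' median change was then 0.39, against 0.15. Under median centring 0 member probes were called in lung at D3, 0 had a lung trend, and 0 were called for the D3 effect in lung minus liver and in lung minus forestomach, where the Ddb2 values were 1.22 and 1.08. It gave 1 vehicle call for lung minus liver and 4 for liver minus forestomach. The cause was not tested. Processed signals gave 1 call, Ddb2, at D2 in lung and 1, Ddb2, at D2 in liver. With no minimum fold there were 2 calls at D2 and 3 at D3 in lung, and 8 in each vehicle comparison. A slide block gave 1 trend in liver (Ddb1), and tissue means over the 4 dose groups left 1 call, Ercc1, for liver minus forestomach. With the mouse as a replicate block, the D3 effect counts stayed at 1, 1 and 0, the vehicle counts at 4, 2 and 2, and Ddb2 differed by 1.00 and 0.85. Leaving out each mouse in turn gave 2 to 4 lung trends (2 without mouse 17 or mouse 19, each time without Ercc4), and 1 call in lung at D3 each time. The Rfc5 difference between lung and liver was lost without mouse 1, 2, 17, 18, 19 or 20, in the authors' table, under median centring and under the slide block. The further genes' lung trends fell from 7 to 4 without mouse 17 or mouse 19. Over all lung probes the D3 count was 571, against 0 with median centring, otherwise 394 to 1125, highest with processed signals, and the D2 count was 168, against 0 and 100 to 380. In liver the counts at D1, D2 and D3 were 55, 136 and 99 (higher in 17.2% at D3), and ran from 2 to 168, 58 to 252 and 27 to 202, the highest each time without mouse 5, and with median centring 3.7% of the D3 calls were higher. The D3 effect counts of 450, 74 and 10 ran from 8 to 572, 0 to 163 and 0 to 70. The trend counts of 3514 in lung, 150 in liver and 8 in forestomach fell to 0, 1 and 0 with median centring and reached 4715, 439 and 11 with the slide block. In forestomach the D2 and D3 counts of 4 and 8 ran from 0 to 6 and 0 to 10. The sign differed from the one reported in 35 of 576 recomputed values, none of them called.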
